A study of Pinellia ternata with 6 samples.

Results

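In all, 6 unigenes of DNA replication, chromatin and mitosis were followed in seedlings of *Pinellia ternata*, out of 62591 unigenes analysed. They were ribonucleoside-diphosphate reductase subunit M2 (RRM2, TRINITY_DN6388_c0_g1), TRINITY_DN22458_c0_g1 and TRINITY_DN5782_c0_g1 of the DNA replication initiation list, TRINITY_DN60460_c1_g1 of the mitotic spindle organization list, histone H3-2 (TRINITY_DN18467_c0_g1) and structural maintenance of chromosomes protein 4 (SMC4, TRINITY_DN77749_c0_g1). Here a unigene is a gene-level cluster of transcripts in a de novo assembly, and its level is the sum of its isoforms. The study instead took the longest transcripts of its clusters as unigenes. The 6 unigenes were chosen by their difference between the lines: RRM2 and the 3 list unigenes are differentially expressed genes of the study, and histone H3-2 and SMC4 were picked from the annotation for a large rise. That T2Plus line lay above T2 line in them is therefore how they were found, and it was not tested.

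The octoploid T2 line (8x, 2n = 104) was the source of T2Plus line (16x, 2n = 208), raised from T2 seedlings by chromosome doubling with colchicine. The unigenes analysed are some of those assembled, so every share, rank and count over all unigenes refers to these. Both lines came from tissue culture, and 3 samples of seedlings 30 days old were analysed per line. The methods mix 5 seedlings per group and leave unstated whether this was done separately for each replicate, so spreads and p-values refer to these samples and may in part be technical. Expression is given as FPKM, the number of fragments per unit of transcript length and of mapped fragments, which the authors scaled between samples. In bulk seedlings, fewer cells of a kind and less RNA per cell cannot be told apart.

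Before a cell divides, its chromosomes are copied once from many origins, where initiation proteins load and start the replicative helicase. Ribonucleotide reductase, built from large M1 and small M2 subunits, makes the deoxyribonucleotides for this synthesis, and the new DNA is wrapped on nucleosomes that each hold histone H3. In mitosis, condensin, whose ATPase core is the pair SMC2 and SMC4, compacts the copies, and a spindle of microtubules draws them apart. In plants these steps take place chiefly in meristems and young organs, so a whole seedling mixes dividing with non-dividing cells.

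RRM2, the small subunit, was present in all 6 samples. Its FPKM was 12.2, 7.77 and 9.87 in replicates 1, 2 and 3 of T2 line and 31.5, 30.4 and 29.6 in those of T2Plus line. The T2Plus values lay close together, and the lowest of them was 2.43 times the highest T2 value. The means were 9.95 ± 2.21 in T2 line and 30.5 ± 0.928 in T2Plus line (SD, n = 3), a ratio of 3.07. The SD was 22.3% of the mean in T2 line and 3.04% in T2Plus line. Of the 4208 unigenes whose T2Plus mean lay within 2-fold of that of RRM2, 8.41% had a smaller relative SD in T2Plus line. The large subunit, RRM1 (TRINITY_DN18222_c0_g1), was not analysed here.

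TRINITY_DN5782_c0_g1, placed among the initiation factors by the study and also in its purine metabolism list, was the other unigene present in every sample. Its FPKM was 1.51, 1.10 and 1.51 in T2 line and 6.55, 6.83 and 5.72 in T2Plus line. Replicate 2 of T2 line was the lowest T2 sample for both this unigene and RRM2. The means were 1.37 ± 0.234 and 6.37 ± 0.577 (SD, n = 3), a ratio of 4.64, and the lowest T2Plus value was 3.79 times the highest T2 value.

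TRINITY_DN22458_c0_g1, the other initiation unigene, was listed at 0 in the 3 T2 samples. In T2Plus line it reached 8.95, 11.5 and 12.3 FPKM, a mean of 10.9 ± 1.73 (SD, n = 3). Replicate 1 was the lowest of these, and the relative SD of 15.9% was near the median of 18.8% for the 6457 unigenes at a like level.

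TRINITY_DN60460_c1_g1, which the study annotates to the organization of the spindle, was likewise at a listed 0 throughout T2 line. It was expressed at 4.198, 3.36 and 3.997 FPKM in T2Plus line, the lowest mean of the 6 unigenes (3.85 ± 0.440, SD, n = 3). The relative SD was 11.4%, against a median of 32.5% over the 9178 unigenes at a like level.

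Histone H3-2, one of the nucleosome core proteins, had a listed 0 in each T2 sample and stood at 14.3, 18.4 and 49.7 FPKM in T2Plus line. Replicate 3 held 3.47 times the value of replicate 1, so the mean of 27.5 carried an SD of 19.4 (n = 3). Without replicate 3 the mean was 16.4. This relative SD of 70.5% was larger than that of 98.4% of the 4451 unigenes at a like level, whose median was 10.2%. Histone H3 genes form a family of nearly identical copies, so the reads of one copy can be assigned to another and the level of this unigene is uncertain.

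SMC4, the condensin ATPase, was also listed at 0 in the T2 samples, and its T2Plus values were 7.29, 6.32 and 2.18 FPKM. Here replicate 3 was the low sample, and the highest value was 3.35 times the lowest. The mean was 5.26 ± 2.72 (SD, n = 3), a relative SD of 51.6%, which exceeded that of 80.8% of the 8487 unigenes at a like level. Without replicate 3 the mean was 6.80. The match to the Arabidopsis protein lies in its amino-terminal part, so the unigene need not stand for the whole transcript.

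**Figure D1:**
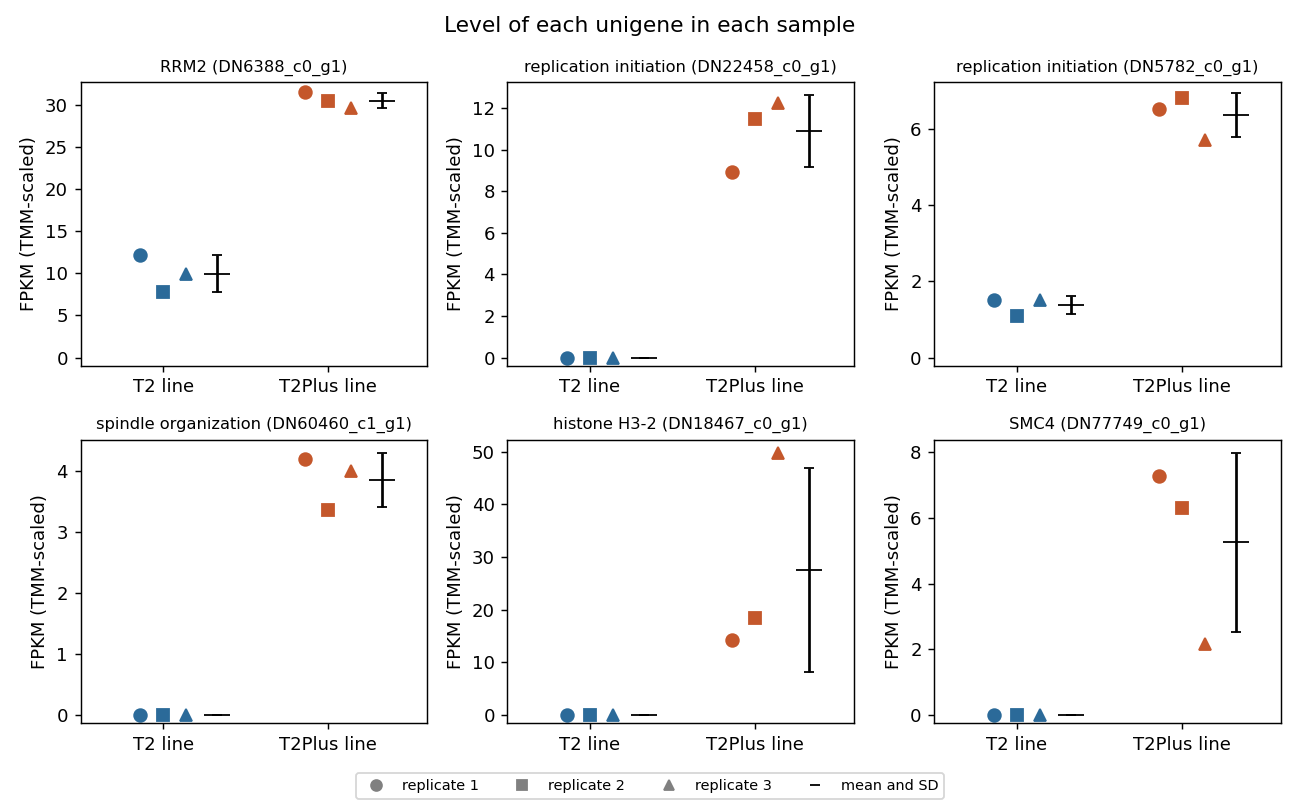
FPKM (TMM-scaled, linear axis) of the 6 unigenes in the 3 samples of T2 line (blue) and the 3 of T2Plus line (orange), 1 panel per unigene, with the marker shape giving the replicate and the bar the mean and SD. RRM2 and DN5782_c0_g1 are above 0 in every sample, the other unigenes are listed at 0 in T2 line, and replicate 3 of T2Plus line is the highest sample for histone H3-2 (49.7) and the lowest for SMC4 (2.18).

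The zeros of T2 line divide the 6 unigenes into 4 listed at 0 in all T2 samples and 2 above 0 in all samples. The 4 passed the filter on low values (1 FPKM or more in 3 or more samples) through T2Plus line alone, so they could only be higher there. No ratio is given for them, since their T2 mean is 0, and a listed 0 need not be an absence. Of the 28536 unigenes that passed the filter, 1022 (3.58%) were listed at 0 in all T2 samples and above 0 in all T2Plus samples, and 553 (1.94%) showed the reverse. Among unigenes at a like T2Plus level, the share at 0 in all T2 samples was 2.31% for histone H3-2, 5.30% for DN22458_c0_g1, 7.63% for DN60460_c1_g1 and 7.71% for SMC4.

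On the log2(FPKM + 1) scale, T2Plus line minus T2 line was 1.55 for RRM2, 1.64 for DN5782_c0_g1, 2.27 for DN60460_c1_g1, 2.53 for SMC4, 3.56 for DN22458_c0_g1 and 4.63 for histone H3-2. For the 4 unigenes at a listed 0, the difference is the T2Plus level on this scale, depends on the offset of 1 and is neither a fold change nor a bound on one. The whole table had a median difference of 0.0997. Calls were made with limma, an empirical Bayes linear model. A call needed a Benjamini-Hochberg adjusted p of 0.05 or less and a difference on this scale of 1 or more in either direction. Such a difference is 2-fold in FPKM + 1, which is more than 2-fold in FPKM. By these limits 2061 unigenes (7.22%) were called higher in T2Plus line and 1799 (6.3%) lower. Every T2Plus sample exceeded every T2 sample in 5575 unigenes (19.5%), and the reverse held in 4686 (16.4%). All 6 unigenes fell among those called higher and among those that did not overlap, which the way they were chosen fixes.

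Each of the 6 unigenes had 1 isoform in the table analysed, so sum and single isoform are the same value. The isoform was numbered i1 for DN22458_c0_g1, DN60460_c1_g1 and SMC4, i2 for histone H3-2, i3 for DN5782_c0_g1 and i7 for RRM2. A number above 1 means that Trinity numbered other isoforms of the same unigene, and these were not analysed here, so the level of the whole unigene can be higher than the value given.

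Ranks within a sample do not depend on the scaling between samples. RRM2 lay above 73.4%, 63.3% and 68.2% of the unigenes above 0 in replicates 1, 2 and 3 of T2 line and above 89.4%, 88.0% and 87.5% of those in T2Plus line. DN5782_c0_g1 lay above 19.7%, 19.2% and 18.4% in T2 line, among the weakly expressed unigenes, and above 61.5%, 61.0% and 56.4% in T2Plus line. Its place within a T2 sample varied less than that of RRM2.

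The 4 unigenes listed at 0 in T2 line entered the T2Plus order at different heights. DN22458_c0_g1 exceeded 69.0%, 72.9% and 73.8% of the unigenes above 0, and DN60460_c1_g1 exceeded 48.8%, 40.8% and 46.7%. For histone H3-2 the shares were 78.3%, 81.3% and 92.9%, and for SMC4 they were 64.1%, 58.9% and 28.8%. In replicates 1 and 2 the order from the top was RRM2, histone H3-2, DN22458_c0_g1, with SMC4 and DN5782_c0_g1 near each other below. In replicate 3 histone H3-2 stood first and SMC4 last.

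**Figure D2:**
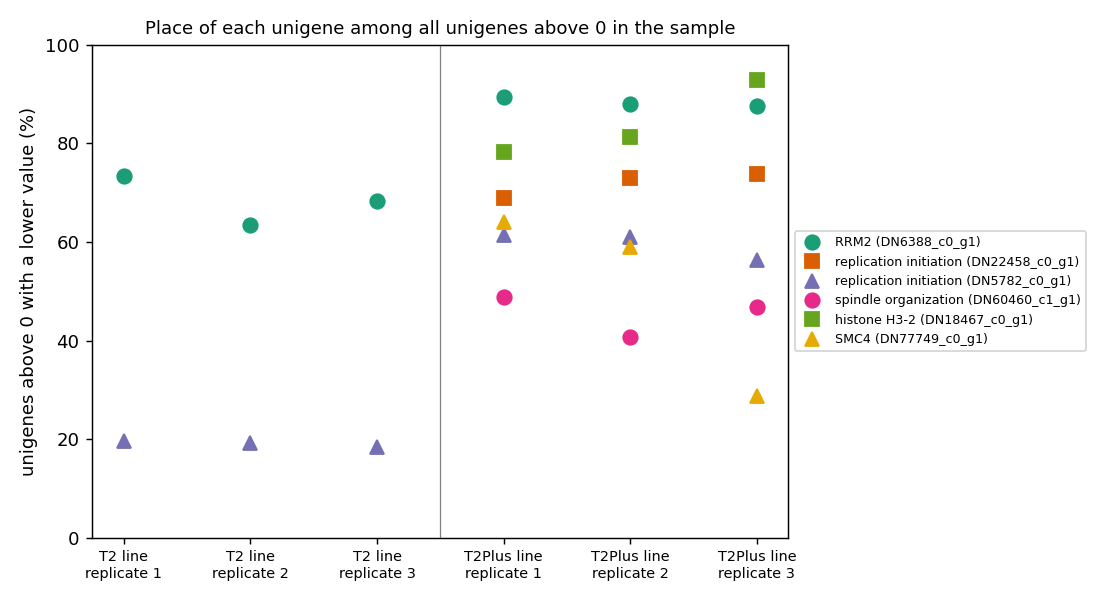
Percentage of the unigenes above 0 in a sample that had a lower FPKM than each of the 6 unigenes, for the 3 samples of T2 line (left) and the 3 of T2Plus line (right), with a unigene listed at 0 not drawn. RRM2 moves from between 63.3% and 73.4% in T2 line to between 87.5% and 89.4% in T2Plus line, and SMC4 stands at 28.8% in replicate 3 of T2Plus line against 64.1% and 58.9% in the other replicates.

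Within T2Plus line the 6 unigenes did not vary as a block. Replicate 3 was the highest sample for histone H3-2 and DN22458_c0_g1 and the lowest for RRM2, DN5782_c0_g1 and SMC4. The ratio of histone H3-2 to SMC4 was 1.96, 2.92 and 22.8 in replicates 1, 2 and 3, an 11.6-fold span, the widest of the 15 pairs. The ratio of RRM2 to DN5782_c0_g1 was 4.81, 4.45 and 5.18, a span of 1.16-fold, the narrowest. Between these lay the ratio of RRM2 to DN60460_c1_g1, with a span of 1.22-fold. In T2 line the ratio of RRM2 to DN5782_c0_g1 was 8.08, 7.05 and 6.55, above every T2Plus value. The samples fall into the 2 lines with 3 each, so no correlation over the 6 was taken.

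**Figure D3:**
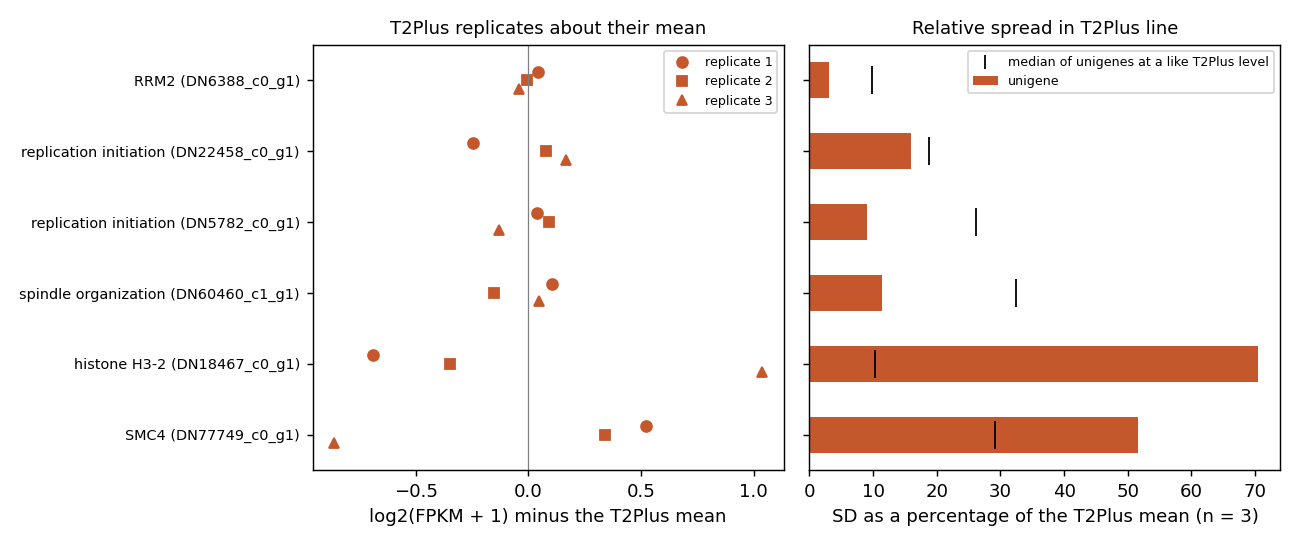
Left, log2(FPKM + 1) of each T2Plus replicate minus the T2Plus mean for the 6 unigenes; right, the SD as a percentage of the T2Plus mean (bars, n = 3) with the median of unigenes at a like T2Plus level (black lines). RRM2 (3.04%) is the tightest, histone H3-2 (70.5%) and SMC4 (51.6%) exceed the median of their level, and replicate 3 deviates in opposite directions for these last 2.

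Together the 6 unigenes amounted to 13.7, 8.87 and 11.4 FPKM in T2 line and 72.8, 76.8 and 104 FPKM in T2Plus line. Histone H3-2 accounts for the high sum of replicate 3 of T2Plus line. As a share of all summed FPKM, the 6 held 0.00142% to 0.00243% in T2 line and 0.0136% to 0.0193% in T2Plus line.

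Trinity groups related contigs under 1 cluster number, and a cluster mate was present for RRM2 and for the spindle unigene. TRINITY_DN6388_c1_g1, the mate of RRM2, stood at 11.4, 17.4 and 7.42 FPKM in T2 line and at 6.14, 11.5 and 11.03 in T2Plus line. The lines overlapped, and the difference of -0.28 (SE 0.36) on the log2(FPKM + 1) scale was not called (limma, Benjamini-Hochberg adjusted p = 0.659) and was 0.00426 without replicate 2 of T2 line.

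The mate of the spindle unigene, TRINITY_DN60460_c0_g1, had 22.9, 29.5 and 20.6 FPKM in T2 line and 8.20, 6.44 and 7.84 in T2Plus line. Every T2Plus sample was below every T2 sample, with means of 24.3 ± 4.596 and 7.49 ± 0.930 (SD, n = 3). The mate fell by 1.57 on the log2(FPKM + 1) scale (SE 0.20; limma, Benjamini-Hochberg adjusted p = 0.00388), in contrast to the spindle unigene itself. In T2Plus line the mate held 1.95, 1.92 and 1.96 times the level of the spindle unigene, a nearly constant ratio, while in T2 line it was present alone. The sum of the pair was 22.9, 29.5 and 20.6 FPKM in T2 line and 12.4, 9.79 and 11.8 in T2Plus line. The study's lists hold the spindle unigene, and whether the pair are parts or copies of 1 gene was not tested. A shared cluster number does not settle this, since cluster DN4810 holds unigenes matched to a condensin subunit and to single myb histones.

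**Figure D4:**
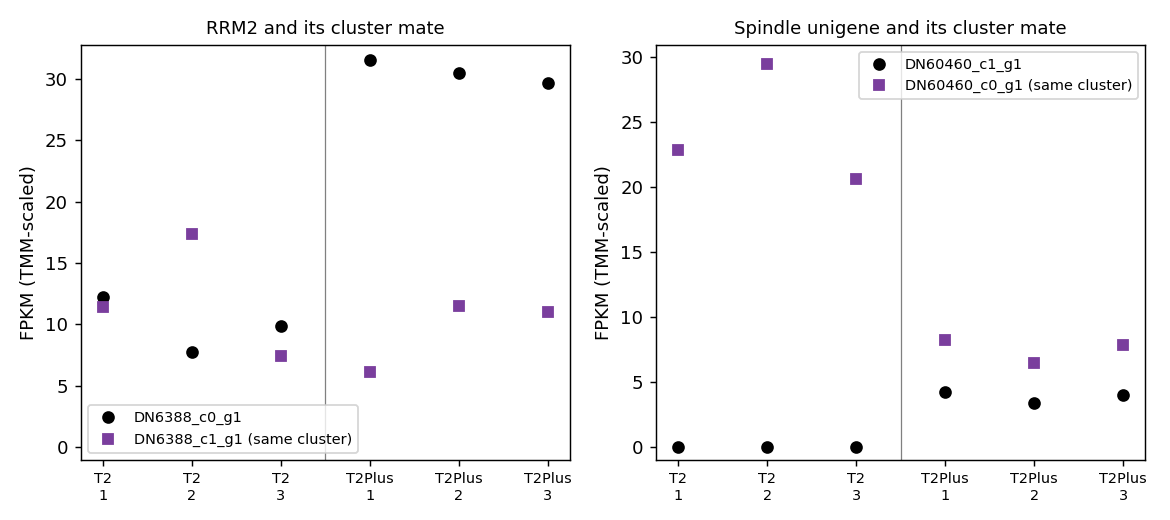
FPKM (TMM-scaled, linear axis) of RRM2 (left) and the spindle unigene (right), as black circles, and of the unigene with the same cluster number, as purple squares, in each sample. The mate of RRM2 overlaps between the lines, while the mate of the spindle unigene falls from between 20.6 and 29.5 in T2 line to between 6.44 and 8.20 in T2Plus line, where the spindle unigene appears.

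The rest of the study's lists around these unigenes were drawn from genes it called on these samples, so their counts are no independent evidence of a direction. Of 8 other unigenes of the replication initiation list, 7 were measured, and all 7 were called higher in T2Plus line (background 7.22%). Among the 7, TRINITY_DN67831_c0_g1 and TRINITY_DN78771_c0_g1 passed the filter through T2Plus line alone, so these could only be higher there. The differences of the 7 ran from 1.11 to 3.41 with a median of 2.02 on the log2(FPKM + 1) scale (limma, Benjamini-Hochberg adjusted p from 0.00133 to 0.0164). The smallest difference belonged to TRINITY_DN200_c0_g1, which had 37.0, 39.8 and 42.1 FPKM in T2 line and 83.4, 87.0 and 89.4 in T2Plus line. The largest belonged to TRINITY_DN1287_c2_g1, which had 1.40, 0.483 and 0.285 FPKM in T2 line and 17.8, 14.4 and 18.1 in T2Plus line. The study's list names a process and not a protein for these unigenes.

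The deoxyribonucleotide lists, which hold RRM2, had 4 other unigenes, of which 2 were measured, and neither was called higher. TRINITY_DN8460_c1_g1 was called lower (background 6.3%), with 40.4, 45.7 and 35.2 FPKM in T2 line and 9.19, 3.18 and 12.3 in T2Plus line. It fell by 2.32 (SE 0.43) on the log2(FPKM + 1) scale (limma, Benjamini-Hochberg adjusted p = 0.0134). TRINITY_DN2094_c0_g2 differed by -0.997 on this scale, just short of the threshold, at an adjusted p of 0.0107 in the same limma fit. The ratio of its mean FPKM in T2Plus line to that in T2 line was 0.488.

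Of 9 other unigenes in the lists of spindle, microtubule and mitosis terms, 5 were measured, and 3 were called higher (background 7.22%) and 1 lower (background 6.3%). The largest rise was that of TRINITY_DN14258_c0_g2, from 1.06, 0.798 and 0 FPKM in T2 line to 11.1, 11.04 and 11.2 in T2Plus line. The deepest fall was that of TRINITY_DN179279_c0_g1, from 3.68, 2.62 and 4.04 FPKM in T2 line to a listed 0 in all T2Plus samples, the reverse of the spindle unigene among the 6. It passed the filter on low values through T2 line alone, so it could only be lower in T2Plus line. With no filter it was not called. The spindle terms thus held unigenes that moved in both directions.

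Unigenes of the same processes were also listed from the annotation by protein name, with histone H3-2 and SMC4 set apart because they had been picked for their rise. The annotation read here was partial: besides the 6, 217 unigenes that passed the filter had a Swiss-Prot name. These lists are therefore not the full set of unigenes of these processes. Of the 22 listed, 17 were measured and 16 passed the filter. None of the 16 was called by limma in either direction, against 7.22% called higher and 6.3% lower in the whole table. With histone H3-2 and SMC4 put back, 2 of 18 were called higher and none lower, so the count of 0 follows in part from setting them apart. Without adjustment, 8 of the 16 had p under 0.05 by limma, a larger share than the 8499 of 28536 in the whole table. The median difference of the 16 was 0.29 on the log2(FPKM + 1) scale, within a range of -0.67 to 1.63, beside 0.0997 over all unigenes. Every T2Plus sample was above every T2 sample in 7 and below in 2, with 19.5% and 16.4% in the whole table. The 7 include TIMELESS-interacting protein, which passed the filter through T2Plus line alone and so could only lie above. They also include condensin-2 complex subunit H2 and single myb histones 3 and 5, which share cluster DN4810.

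Among cell cycle regulators, 3 of 7 could be tested and the lines overlapped in each. The highest value was that of Cyclin-B1-2, a mitotic cyclin, with 14.04, 29.6 and 22.6 FPKM in T2 line and 22.8, 35.8 and 19.5 in T2Plus line, a difference of 0.24 (SE 0.33) whose sign turned without replicate 1 of T2 line (-0.0387) or replicate 2 of T2Plus line (-0.01). The lowest value was that of DPB, a partner of E2F transcription factors, at -0.13 (SE 0.17).

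The chromosome structure list had a median difference of 0.42 over 5 unigenes. Condensin-2 complex subunit H2, named after its values were seen because it belongs to a condensin complex as SMC4 does, had 18.5, 17.98 and 18.9 FPKM in T2 line and 25.6, 23.7 and 25.96 in T2Plus line. The groups did not overlap, and the difference of 0.42 (SE 0.12) was not called (limma, Benjamini-Hochberg adjusted p = 0.0586, and 0.0337 to 0.187 under the alternatives). Its spread between T2Plus replicates was far below that of SMC4. Single myb histone 5, a homologue of maize proteins that bind telomeric DNA, had the highest value of the list at 0.77 (SE 0.32), and RuvB-like protein 1, an ATPase of chromatin remodelling complexes, the lowest at -0.57 (SE 0.17). Single myb histone 3 was past the adjusted p alone (0.0348) at a difference of 0.73, under 2-fold, and was named after its values were seen.

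The list of fork and repair proteins had a median difference of 0.29 over 8 tested unigenes. TIMELESS-interacting protein, which steadies replication forks, was at 0, 0.483 and 0 FPKM in T2 line and at 2.73, 1.08 and 4.72 in T2Plus line. It passed the filter through T2Plus line alone, so that line could only be higher and the groups could not overlap. The T2Plus replicates were widely spread, and the difference of 1.63 (SE 0.46) was not called (limma, Benjamini-Hochberg adjusted p = 0.0579). It was called without replicate 2 of T2Plus line (2.02, adjusted p = 0.0411). The lowest value was that of the mismatch repair protein PMS1, at 8.39, 5.89 and 6.89 FPKM in T2 line and 4.49, 3.96 and 3.61 in T2Plus line, a difference of -0.67 (SE 0.25). The helicase HRQ1, also named after its values were seen, was past the adjusted p alone (0.0417) at 0.75.

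**Figure D5:**
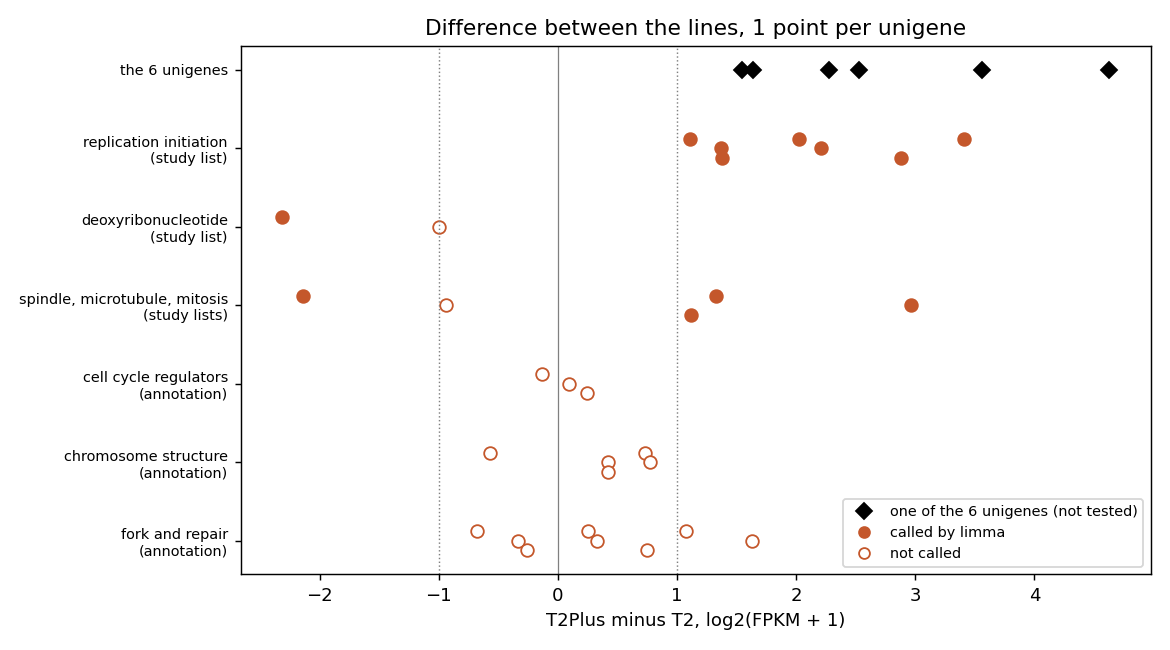
Difference between the lines (T2Plus minus T2, log2(FPKM + 1), 1 point per unigene) for the 6 unigenes, the 3 groups of study lists and the 3 annotation lists, with dotted lines at the threshold of 1 in either direction and filled circles for unigenes called by limma. The 6 unigenes lie between 1.55 and 4.63, the 7 other replication initiation unigenes between 1.11 and 3.41, and the 16 annotation unigenes between -0.67 and 1.63 with none called.

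The unigene with a Swiss-Prot name whose log2(FPKM + 1) values over the 6 samples lay nearest to each of the 6 was found among 217 candidates, by Euclidean distance. For RRM2 it was a probable receptor-like protein kinase (At1g49730), at a distance of 0.467, with 11.7, 7.98 and 12.01 FPKM in T2 line and 26.9, 26.3 and 25.01 in T2Plus line. Of all unigenes, 1 was nearer to RRM2. For DN5782_c0_g1 it was the 5' exonuclease Apollo of the repair list, at 1.39. For the 4 unigenes listed at 0 in T2 line the nearest were the receptor-like kinase SD1-8 for both SMC4 (1.40) and DN22458_c0_g1 (1.22), a trypsin/chymotrypsin inhibitor for DN60460_c1_g1 (0.710) and the AAA-ATPase At3g28580 for histone H3-2 (2.71). For these 4 and for Apollo, between 197 and 507 unigenes of the whole table were nearer.

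The samples also differed in measures that are not specific to these genes. Chloroplast proteins, listed by name from the partial annotation, were measured for 24 of 45 unigenes, with 22 to 24 above 0 in each sample. How far they mark green tissue was not tested. Their share of summed FPKM was 0.702% to 0.846% in T2 line and 0.523% to 0.637% in T2Plus line. Most of it came from oxygen-evolving enhancer protein 1, named after its values were seen. That unigene had 3425 to 4697 FPKM in T2 line and 2443 to 3026 in T2Plus line, and was not called (limma, Benjamini-Hochberg adjusted p = 0.0834). Of 23 tested, 9 had a difference above 0 and 14 below, and 12 and 11 after rescaling to equal sums. By limma, 4 were called lower (background 6.3%) and 0 higher (background 7.22%). An unadjusted p under 0.05 was found for 9, beside 8499 of 28536 in the whole table. Cytosolic translation proteins, 7 of 10 measured and each above 0 in every sample, held 0.0715% to 0.101% in T2 line and 0.0638% to 0.0653% in T2Plus line. One read was worth 0.750 as much in replicate 2 of T2 line as in replicate 1, and 0.943 to 1.12 as much in the others. The 100 most abundant unigenes took 19.5% of the summed FPKM in that replicate and 14.7% to 15.8% elsewhere, and the number of unigenes above 0 ran from 28177 there to 33997 in replicate 1 of T2Plus line. The part of these differences in the values of the 6 unigenes was not tested.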

How the data were processed

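Total RNA was isolated from whole seedlings, and mRNA enriched from it with oligo(dT) beads was sequenced for 3 samples each of T2 line and T2Plus line. Per the submitters' processing notes, the authors used Trimmomatic 0.36 and FastQC 0.11.5 on the reads. They assembled with Trinity (k-mer 25), and deposited for each isoform a TMM-scaled FPKM from RSEM, the unit being taken from the study's methods. The aligner, and which releases of RSEM and Trinity were run, are not stated in what was read. The authors called genes with DESeq on counts that were not used here. In all there were 65535 isoforms, 13866 of them at 0 in every sample. They are some of the assembled transcripts, since unigenes and isoforms that the study names or numbers lie outside them, and what lies outside was not analysed here.

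Isoforms were summed per unigene. Those reaching 1 FPKM in 3 or more samples were compared on log2(FPKM + 1) by limma 3.58.1 (R 4.3.3), with the variance following intensity and Benjamini-Hochberg adjustment over 28536 unigenes. They were called where the adjusted p was 0.05 or less and the difference on this scale 1 or more in either direction. This scale understates changes of weakly expressed unigenes. The study reports clean reads per sample, with the most in replicate 2 of T2 line. FPKM values hold no counts per unigene, so no counting interval is given. The relative worth of 1 read was taken from low values. Unigenes at a like level were those with a T2Plus mean within 2-fold. Summaries and plots used Python 3.11.15, numpy 2.4.6, pandas 2.3.3 and matplotlib 3.10.9.

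The 6 unigenes, the lists and the tests were chosen with earlier results of these data known. Besides the 6, the text names their cluster mates, RRM1, called unigenes and the largest rise and fall of each annotation list, the largest and smallest difference of each study list, and the nearest named unigene, and for others the text says that they were chosen later. Unigenes of the study lists named for the filter or for a changed call were also chosen after their values were seen. The annotation gives best matches in other species. Replicate numbers gave no sign of pairing the samples: same-numbered deviations correlated at 0.0366, -0.0327 and -0.0665. Those with different numbers correlated at -0.0802 to 0.108. With 3 samples per line this cannot settle whether any were handled together.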

Additional observations from a re-analysis of the deposited data

How the results depend on the processing

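The alternatives were another pseudocount, no filter on low values, the highest isoform, rescaling to equal sums, the replicate number as a block, limma with no intensity trend, and each sample left out. No called unigene of the lists changed direction. With a sample left out, 4 values that were not called spanned 0: Cyclin-B1-2 (-0.0387 to 0.47), anaphase-promoting complex subunit 11 (-0.33 to 0.41), RAD5A (-0.52 to 0.12) and the cluster mate of RRM2 (-0.56 to 0.00426). The signs turned without T2 replicate 1 for the first and second of these, also without T2Plus replicate 2 for Cyclin-B1-2 (-0.01), and without T2 replicate 2 for the others, of which RAD5A, like the anaphase subunit, was named after its values were seen. The 6 unigenes did not overlap between the lines with the highest isoform, after rescaling and with each sample left out, which their choice fixes in part. With a pseudocount of 0.1 the log2 differences were 6.77 for DN22458_c0_g1, 2.14 for DN5782_c0_g1, 5.30 for DN60460_c1_g1, 7.89 for histone H3-2 and 5.57 for SMC4. For the 4 at a listed 0 in T2 line the offset sets this value. With each sample left out they ran from 1.40 to 1.69 for RRM2, 4.11 to 4.97 for histone H3-2 and 2.27 to 2.96 for SMC4. Ranked among all unigenes instead of those above 0, the 6 had median T2Plus places of 72.2% to 94.01%. Rescaling each sample to an equal sum moved the median of all unigenes from 0.0997 to 0.23, and that of the annotation lists from 0.29 to 0.44. The differences became 1.72 for RRM2, 1.95 for DN5782_c0_g1, 3.04 for DN60460_c1_g1, 3.30 for SMC4, 4.41 for DN22458_c0_g1 and 5.504 for histone H3-2, where the larger sums also make the offset of 1 smaller beside each value. After rescaling, limma called 1 annotation unigene, TIMELESS-interacting protein (2.23, adjusted p = 0.0479), which passed the filter through T2Plus line alone. Limma without the trend called 1, Apollo (1.07, adjusted p = 0.0359), and with a sample left out 0 to 1 were called.

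Over the whole table, 1073 unigenes were called higher and 1142 lower with no filter, and 1169 and 1146 with the replicate block, where the cause was not tested. With a sample left out the ranges were 1463 to 1947 and 1270 to 1628. Of the study lists, 1 unigene was called lower with no filter, and with a sample left out 8 to 10 were called higher and 2 to 3 lower. TRINITY_DN179279_c0_g1 and TRINITY_DN67831_c0_g1 lost their calls with no filter. TRINITY_DN44398_c0_g2 of the initiation list lost its call with the replicate block and without each T2Plus replicate. TRINITY_DN4486_c0_g3 of the spindle lists lost its call without T2 replicate 2 or T2Plus replicate 1. TRINITY_DN2094_c0_g2 was called lower with the pseudocount of 0.1 (-1.04) and with the highest isoform (-1.47). It was also called lower without T2 replicate 1, T2 replicate 3 or T2Plus replicate 3. TRINITY_DN3141_c0_g1 of the spindle lists was called lower without T2Plus replicate 2. The block changed no call of the annotation lists. What depth limits cannot be read from FPKM, so a listed 0 is not an absence.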
